A study of Homo sapiens with 9 samples.

Results

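The clustered histone genes were examined in MCF-10A cells, a non-tumorigenic human breast epithelial line, that expressed docking mutants of the kinase ERK2. Members were the rows of the array whose only gene symbol is that of a clustered histone gene, in the older HIST1H to HIST4H names or in the current H1-1 to H1-6, H2AC, H2BC, H3C and H4C names. Of 68993 rows that are no controls, 35 met this rule, and they stand for 34 of the 22411 genes tested. These are 6 linker histone genes (H1), 10 H2A genes, 16 H2B genes and 2 H4 genes, and 2 of the 34 are pseudogenes (H2AC2P and H2BC20P). No H3 gene had a row to itself. Another 37 rows list several near-identical histone genes at once, cannot be assigned to a gene and are described apart. H2BC11 had a second, dimmer row, which did not differ beyond the threshold between D319N and vector cells (log2 difference -0.08, adjusted p = 0.295) and was not used.

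Cells carried a doxycycline-inducible (Tet-on) construct for ERK2 D319N, for ERK2 Y261A or for the empty vector, and all groups received doxycycline and were grown for 7 days in medium with serum, EGF and insulin. Each group had 3 replicates, 9 arrays in all, and the labels do not say whether these were separate cultures or whether each construct was 1 clone. ERK2 is the kinase that MEK activates below RAS and RAF. The D319N change lies in the common docking domain, which binds partners with a D motif, and Y261A lies in the pocket that binds DEF-motif substrates. No cells with wild-type ERK2 were analysed here, the labels do not say how much endogenous ERK2 remained, and induction of the constructs was not checked here.

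Clustered histone genes supply the core histones H2A, H2B, H3 and H4, around which DNA is wrapped, and the linker histones H1, which bind between these units. They lie in gene clusters on chromosomes 6 and 1, have no introns in their main form, and are transcribed in S phase at histone locus bodies, where NPAT, activated by cyclin E with CDK2, drives them. Their mRNA ends in a stem-loop bound by SLBP in place of a poly(A) tail, and it is destroyed when DNA synthesis stops. A subset, among them H2AC6 (older name HIST1H2AC), H2BC21 (HIST2H2BE), H2BC5 (HIST1H2BD) and H2BC12 (HIST1H2BK), is also known to make polyadenylated RNA in cells that have left the cycle.

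The start regions of 5 members on which the results turn are shown, 4 from chromosome 6 and 1 from chromosome 1. H1-4, H2BC14 and H2BC10 had the largest differences between D319N and vector cells, and H2AC6 and H2BC21 were the members called higher in D319N than in Y261A cells. Each line gives the 200 bases before the RefSeq start, 5′ to 3′ on the gene's own strand, with RefSeq sequence and coordinates of GRCh38.p14. Capitals mark matches on either strand to the octamer ATTTGCAT, to CCAAT, to TATAAA and, in H1 genes, to AAACACA, the H1 box.
H1-4, chr6:26156129-26156328, plus strand: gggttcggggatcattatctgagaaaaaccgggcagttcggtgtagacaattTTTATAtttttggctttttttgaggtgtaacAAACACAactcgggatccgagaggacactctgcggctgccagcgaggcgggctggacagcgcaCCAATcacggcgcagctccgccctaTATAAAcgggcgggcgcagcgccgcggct
H2BC14, chr6:27814822-27815021, plus strand: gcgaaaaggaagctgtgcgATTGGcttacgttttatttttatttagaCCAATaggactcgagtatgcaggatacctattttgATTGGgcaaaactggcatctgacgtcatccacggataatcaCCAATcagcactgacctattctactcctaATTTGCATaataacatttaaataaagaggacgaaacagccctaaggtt
H2BC10, chr6:26272731-26272930, plus strand: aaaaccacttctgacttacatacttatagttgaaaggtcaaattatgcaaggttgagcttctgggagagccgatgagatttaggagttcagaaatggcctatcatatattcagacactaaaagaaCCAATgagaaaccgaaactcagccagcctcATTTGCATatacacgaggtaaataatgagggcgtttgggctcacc
H2AC6, chr6:26123972-26124171, plus strand: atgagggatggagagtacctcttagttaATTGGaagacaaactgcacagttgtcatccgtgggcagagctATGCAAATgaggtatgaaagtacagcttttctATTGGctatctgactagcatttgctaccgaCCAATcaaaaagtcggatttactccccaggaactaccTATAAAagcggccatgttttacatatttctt
H2BC21, chr1:149886683-149886882, minus strand: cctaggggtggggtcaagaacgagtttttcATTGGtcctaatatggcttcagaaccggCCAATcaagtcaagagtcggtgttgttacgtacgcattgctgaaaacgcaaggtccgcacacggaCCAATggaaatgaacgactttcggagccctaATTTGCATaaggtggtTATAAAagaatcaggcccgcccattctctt
The octamer, which binds the factor OCT1 and is known from H2B promoters, lies at positions -48 to -41 from the start in H2BC14 and at -45 to -38 in H2BC10. In H2AC6 it is farther away, at -130 to -123, and on the other strand.

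RefSeq promoters were matched for 30 of the 34 members, and 250 bases before each start were searched on both strands. CCAAT was found in 29 of 30 members (96.7%), against 32.0% of 35116 RefSeq promoters of the same length. The octamer was found in 17 members (56.7%), against 1.63% of all promoters, and TATAAA in 20 (66.7%), against 10.7%. The H1 box was found in all 6 H1 genes and in no other member, against 4.82% of all promoters. The octamer was held by 6 of 8 H2A members and 11 of 15 H2B members, and by none of the 6 H1 genes. Where neighbouring members start less than 250 bases apart on opposite strands, the searched bases overlap, and a match can count for both genes. For H2AC14 with H2BC14, H2AC20 with H2BC21 and H2AC1 with H2BC1, the octamer is the same site. Counts of members with a motif are therefore not counts of separate sites. In 7 of those 11 H2B genes it lay within 60 bases of the start. Of the 7 H2B members called lower in D319N cells below, 6 hold the octamer, and of the 8 not called, 5 do. The plot of motif positions shows the CCAAT and octamer matches of each member. These are matches of letters, and binding was not measured.

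**Figure D1:**
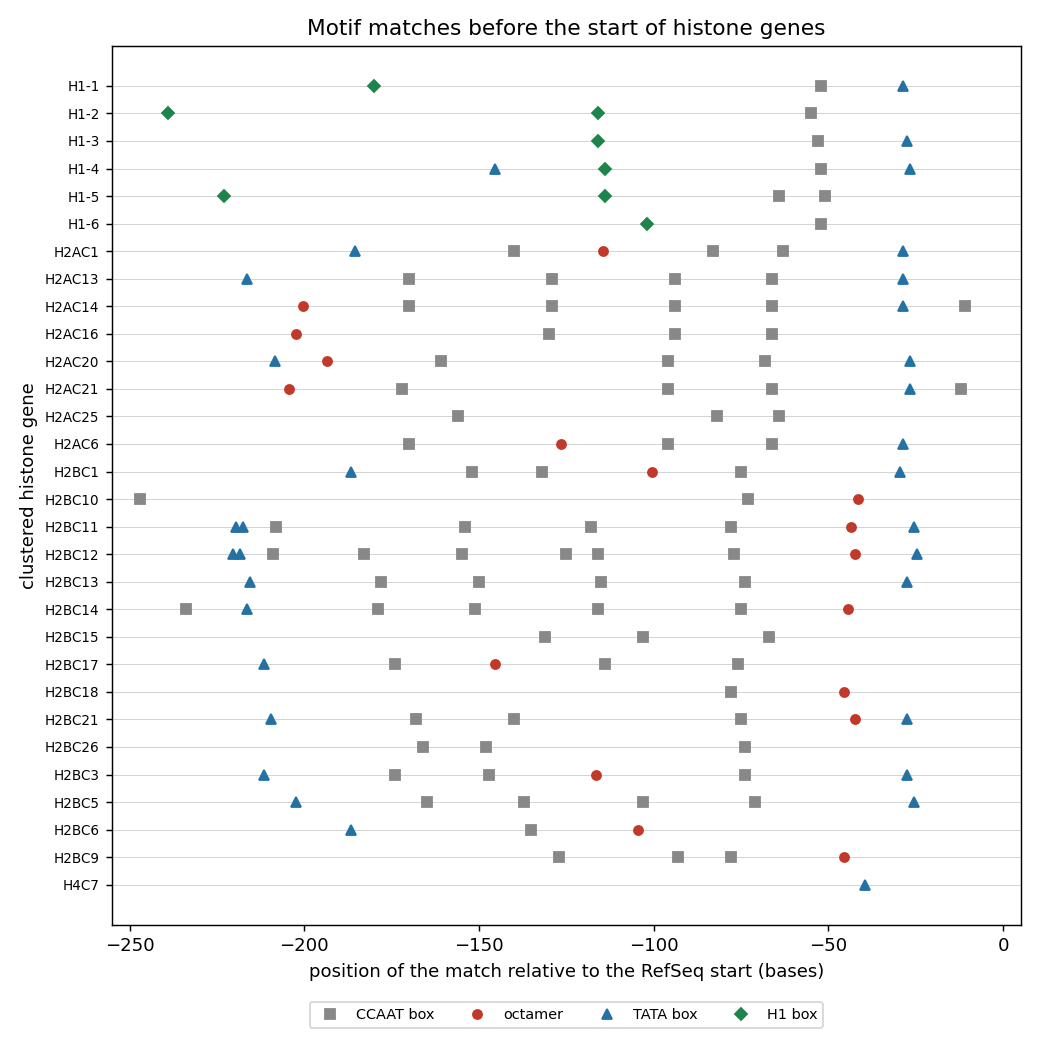
Positions of motif matches in the 250 bases before the RefSeq start of 30 clustered histone genes, with genes down the page and the position in bases, relative to the start, along the axis. Squares are CCAAT, circles the octamer, triangles TATAAA and diamonds the H1 box. The H1 box appears in the 6 H1 rows alone, and 7 H2B genes carry the octamer within 60 bases of the start.

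The values are log2 RMA signals, so a difference of 1 is a doubling of signal, and levels are compared between arrays for the same gene and not between genes. The mean of the background probe sets was 4.85, and 27 of the 34 members lay above it in their mean over all arrays. The other 7 (H1-3, H1-5, H2AC1, H2AC14, H2BC1, H2BC6 and H4C7) lay at or below it, where folds can be compressed. A gene is said to have fallen or risen where limma's adjusted p, by Benjamini-Hochberg over all 22411 genes, was under 0.05. D319N replicate 2 and Y261A replicate 3 stood apart from their groups. Their deviations from the group means correlated at 0.604 over the 22411 genes, a description of arrays made in the same study. D319N replicate 2 was the lowest of its group in 21 of the 34 members, Y261A replicate 3 in 21 of 34 and vector replicate 1 in 17 of 34. The like shares over all genes are not given here. Counts are also given without D319N replicate 2 and Y261A replicate 3. The MCF-10A epithelial marker KRT5 was at 11.5 in D319N, 12.4 in Y261A and 12.8 in vector cells, and the leukocyte marker PTPRC at 2.97 in all 3 groups. Because near-identical histone genes may share probes, signal of a named gene may include that of its copies.

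In D319N cells the clustered histone genes were mostly lower than in vector cells. Of 34 members, 14 fell and none rose, against 7.66% lower and 8.93% higher over all genes tested. The median difference of the members was -0.27 on the log2 scale, against -0.03 over all genes, and 24 members had an unadjusted p under 0.05, against 28.5% of all genes. On every D319N array the median member lay below its vector mean, at -0.19, -0.39 and -0.21 in replicates 1, 2 and 3. On the vector arrays this median was between -0.03 and 0.04, held small because these arrays make up the vector mean. All 3 D319N arrays lay below all 3 vector arrays for 22 members and above them for 1, H2AC6, against 16.9% and 15.1% of all genes. Whether fewer cells were in S phase or each cell held less histone RNA cannot be told apart in bulk RNA. Without D319N replicate 2 and Y261A replicate 3, 13 members fell, 12 of them among the 14, H2AC6 rose, and the median was -0.20. In that fit 19.9% of all genes fell and 15.7% rose. With vector replicate 2 left out 7 members and 5.04% of all genes fell, and with vector replicate 3 left out 8 members and 6.77% of all genes fell.

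**Figure D2:**
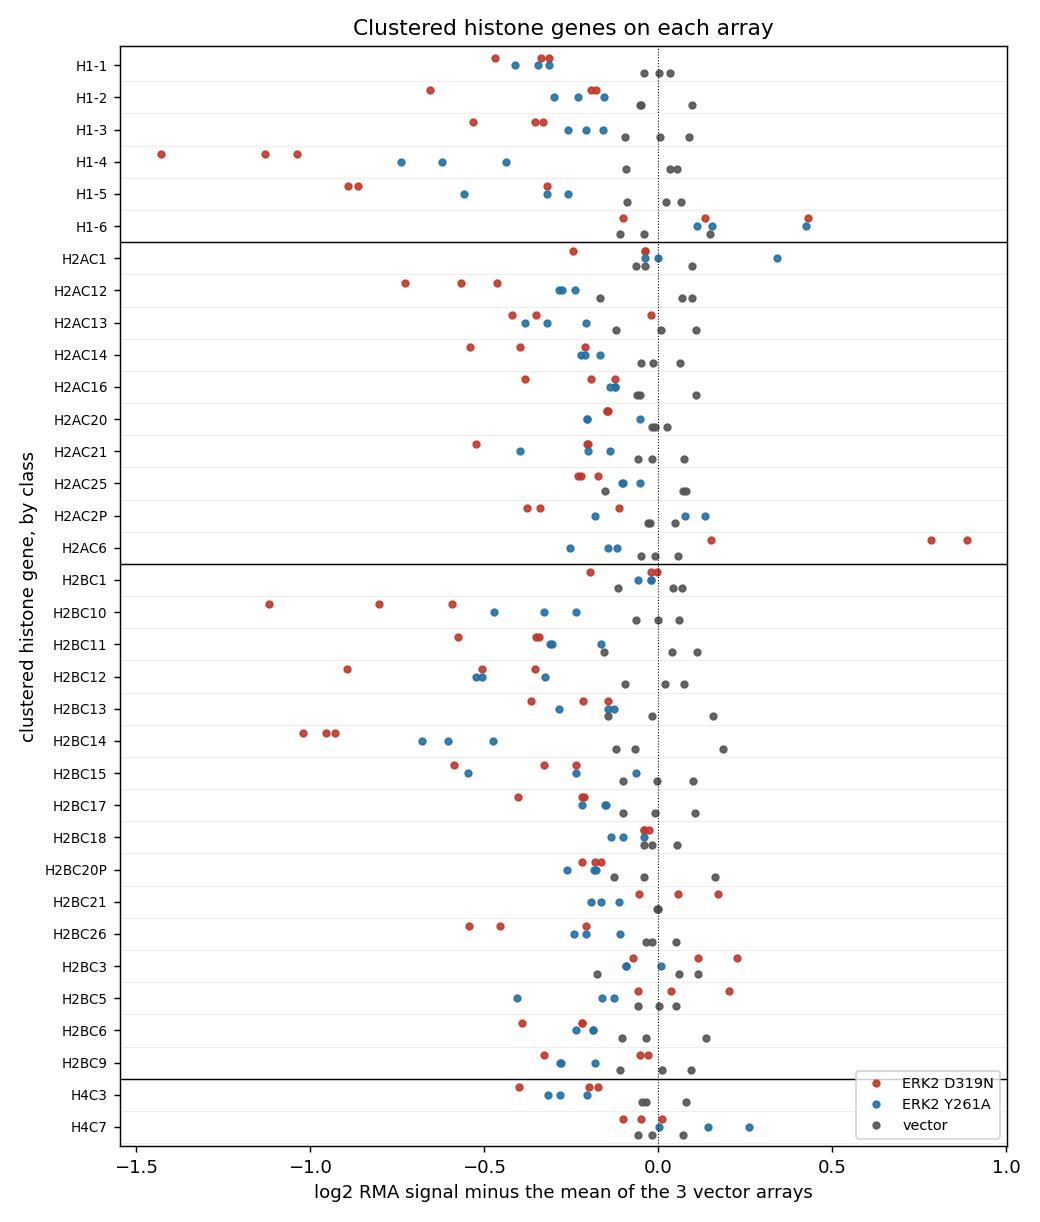
Each of the 34 clustered histone genes on each of the 9 arrays, as log2 RMA signal minus the gene's mean over the 3 vector arrays. Red points are ERK2 D319N, blue points ERK2 Y261A and grey points vector, and lines divide the H1, H2A, H2B and H4 genes. The D319N point farthest to the left belongs to H1-4, and the D319N point farthest to the right belongs to H2AC6.

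**Figure D3:**
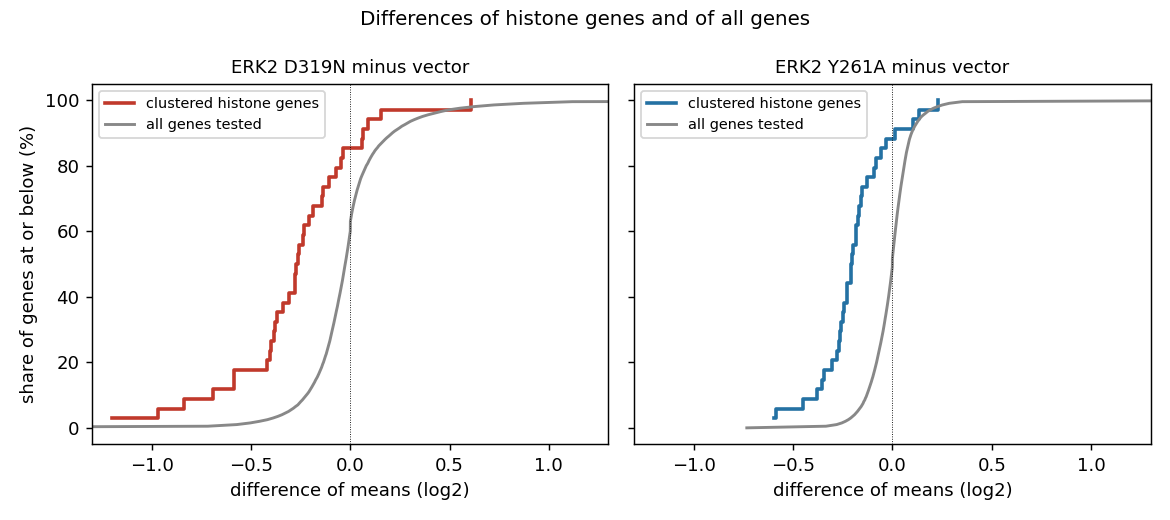
Share of genes (%) whose difference of group means (log2) is at or below the value on the horizontal axis, for ERK2 D319N minus vector on the left and ERK2 Y261A minus vector on the right. Coloured steps are the 34 clustered histone genes and the grey curve all 22411 genes tested. The steps lie left of the grey curve over most of their length, with medians of -0.27 and -0.21 against -0.03 and 0.00.

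The linker histone genes included the largest difference. H1-4 (older name HIST1H1E), one of the main replication-dependent linker histones, was at 9.92, 9.62 and 10.01 on the D319N arrays, at 10.61, 10.31 and 10.43 on the Y261A arrays and at 10.96, 11.08 and 11.10 on the vector arrays. The 3 groups did not overlap, with D319N lowest and vector highest. H1-4 was 2.29-fold lower in D319N than in vector cells (log2 -1.20 ± 0.12 SE, adjusted p = 0.000531). H1-5 (HIST1H1B), another linker histone of dividing cells, was at 4.81, 4.27 and 4.24 in D319N cells and at 5.04, 5.15 and 5.19 in vector cells. It fell by 0.69 (adjusted p = 0.0242), near background, and the call was lost in 5 of the 9 fits that leave out 1 array, those without D319N replicate 2, D319N replicate 3 or any of the vector arrays (adjusted p up to 0.0823).

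H1-1 (HIST1H1A) was at 5.47, 5.34 and 5.49 in D319N cells and at 5.81, 5.76 and 5.84 in vector cells, with no overlap. It fell by 0.37 (SE 0.05, adjusted p = 0.00171). H1-3 (HIST1H1D) was at 4.21, 4.01 and 4.18 in D319N cells and at 4.63, 4.54 and 4.44 in vector cells, all below the background mean, and fell by 0.40 (adjusted p = 0.00601). H1-2 (HIST1H1C), which is expressed in most cell types, did not overlap between the groups but was not called (-0.34, adjusted p = 0.126). Its D319N arrays were at 7.58, 7.10 and 7.56, with replicate 2 far below the others. H1-6 (HIST1H1T), the testis linker histone, averaged 5.41 ± 0.27 in D319N and 5.26 ± 0.13 in vector cells (SD, n = 3) and was not called. Thus 4 of 6 H1 genes fell, and 3 of them (H1-1, H1-3 and H1-4) did so in all 9 fits that leave out 1 array.

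Among the 10 H2A genes, whose products pair with H2B in the core particle, 2 fell and none rose, with a median difference of -0.25. H2AC12 (HIST1H2AH) was at 6.25, 6.09 and 6.36 in D319N cells and at 6.65, 6.91 and 6.89 in vector cells. The groups did not overlap, and H2AC12 fell by 0.58 (SE 0.09, adjusted p = 0.00362), also in all 9 fits without 1 array. H2AC14 (HIST1H2AJ) was at 2.24, 2.09 and 2.43 in D319N cells and at 2.70, 2.59 and 2.62 in vector cells, far below background, and fell by 0.38 (adjusted p = 0.0151). It was called in 7 of the 9 fits, and not without D319N replicate 1 or without vector replicate 1 (adjusted p up to 0.0607). H2AC20 (HIST2H2AC) was at 11.32, 11.32 and 11.33 in D319N cells and at 11.45, 11.49 and 11.46 in vector cells. Its groups did not overlap, but the difference of -0.14 was not called (adjusted p = 0.0561). H2AC25 (-0.21, adjusted p = 0.0619), H2AC16 (-0.23, adjusted p = 0.0734) and H2AC21 (-0.31, adjusted p = 0.0926) lay lower on all D319N arrays without being called. H2AC1, an H2A of the testis, lay below background and overlapped (-0.11, adjusted p = 0.554). The pseudogene H2AC2P (-0.28, adjusted p = 0.109) and H2AC13 (-0.26, adjusted p = 0.176) were not called either.

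H2AC6 went the other way. It was at 6.35, 5.62 and 6.25 on the D319N arrays, at 5.32, 5.35 and 5.21 on the Y261A arrays and at 5.46, 5.42 and 5.52 on the vector arrays. All D319N values were the highest, replicate 2 by the least. The difference from vector of 0.61 ± 0.18 SE was not called (adjusted p = 0.0572), and it was called without D319N replicate 2 (0.84, adjusted p = 0.000314). H2AC6 was also called higher when arrays were centred on their median, when they were quantile-normalized and when dim genes were dropped.

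Of the 16 H2B genes 7 fell and none rose, with a median difference of -0.26. H2BC14 (HIST1H2BM) was at 6.81, 6.83 and 6.74 on the D319N arrays, at 7.29, 7.16 and 7.08 on the Y261A arrays and at 7.69, 7.95 and 7.64 on the vector arrays. The 3 groups were apart, and H2BC14 was 1.95-fold lower in D319N than in vector cells (log2 -0.97 ± 0.09 SE, adjusted p = 0.000400). H2BC10 (HIST1H2BI) was at 7.13, 6.81 and 7.33 on the D319N arrays, at 7.69, 7.60 and 7.45 on the Y261A arrays and at 7.86, 7.99 and 7.93 on the vector arrays. D319N was again lowest and vector highest, with no overlap, and H2BC10 was 1.79-fold lower in D319N than in vector cells (log2 -0.84 ± 0.13 SE, adjusted p = 0.00425). Both genes were called in all 9 fits without 1 array.

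H2BC12, which can also make polyadenylated RNA, was at 10.22, 9.83 and 10.37 in D319N cells and at 10.63, 10.75 and 10.80 in vector cells. It fell by 0.58 (SE 0.13, adjusted p = 0.0244), a call kept in 5 of the 9 fits and lost without D319N replicate 1 or without any of the vector arrays (adjusted p up to 0.0825). H2BC11 averaged 7.92 ± 0.13 in D319N cells and 8.34 ± 0.14 in vector cells (SD, n = 3), did not overlap, and fell by 0.42 (adjusted p = 0.0184). The call was lost without vector replicate 2 or vector replicate 3 (adjusted p up to 0.0686). H2BC26, of the small cluster on chromosome 1, was at 6.69, 6.78 and 7.02 in D319N cells and at 7.20, 7.28 and 7.21 in vector cells. It fell by 0.40 (adjusted p = 0.0164), and not without vector replicate 2 (adjusted p = 0.0668). H2BC17 (-0.28, adjusted p = 0.0312) and H2BC6 (-0.28, adjusted p = 0.0375, below background) fell least of the 7, and each was called in 2 of the 9 fits without 1 array. Those were the fits without Y261A replicate 3 or vector replicate 1 for H2BC17 (adjusted p up to 0.0966 in the others), and without D319N replicate 2 or vector replicate 1 for H2BC6 (up to 0.106). The D319N and vector values overlapped for H2BC21 (0.06), H2BC3 (0.09), H2BC5 (0.06) and H2BC18 (-0.03), with adjusted p between 0.491 and 0.674. The other uncalled H2B genes differed by -0.38 (H2BC15, adjusted p = 0.118), -0.24 (H2BC13, 0.130), -0.19 (the pseudogene H2BC20P, 0.126), -0.14 (H2BC9, 0.357) and -0.07 (the testis H2B gene H2BC1, 0.487).

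**Figure D4:**
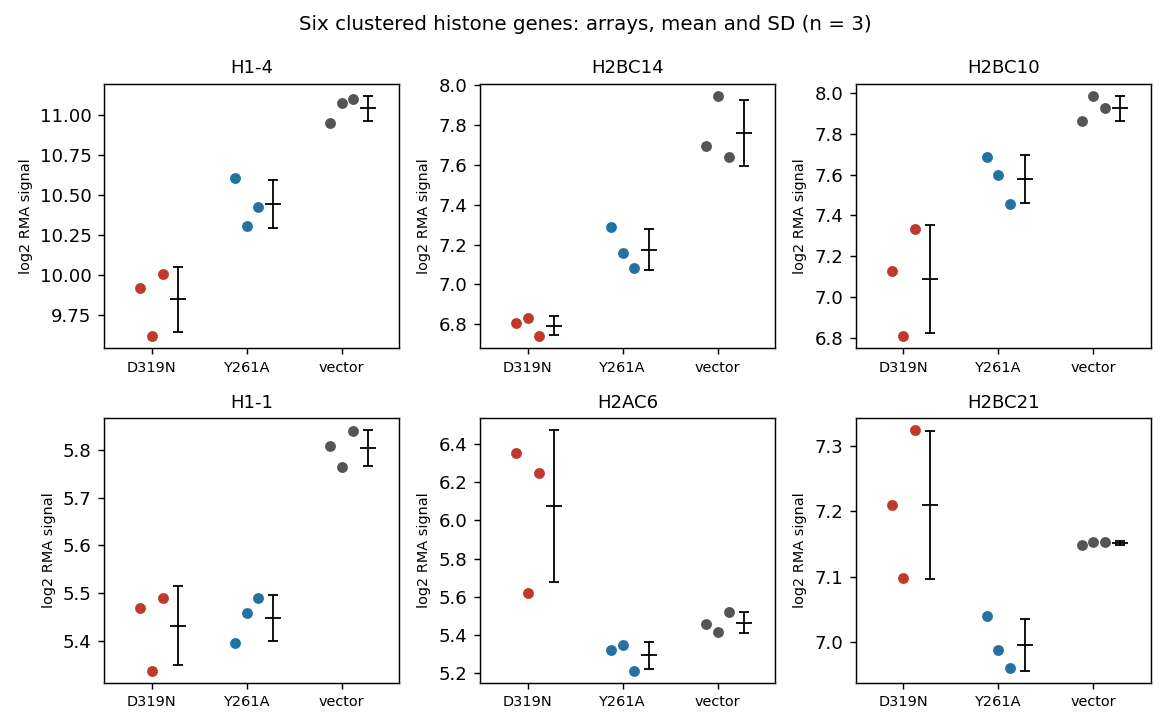
Log2 RMA signal of H1-4, H2BC14, H2BC10, H1-1, H2AC6 and H2BC21 on each array, with ERK2 D319N in red, ERK2 Y261A in blue and vector in grey. Bars are the mean and SD over 3 arrays, and each panel has its own axis, which does not start at 0. In H1-4, H2BC14 and H2BC10 the D319N arrays lie lowest and Y261A between D319N and vector, and in H2AC6 and H2BC21 the Y261A arrays lie lowest.

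Of the 2 H4 members 1 fell in D319N cells. H4C3 (HIST1H4C) was at 11.24, 11.04 and 11.26 in D319N cells, at 11.23, 11.15 and 11.12 in Y261A cells and at 11.40, 11.51 and 11.39 in vector cells. It fell by 0.26 in D319N against vector cells (SE 0.07, adjusted p = 0.0406), a call kept in 2 of the 9 fits, those without D319N replicate 2 or replicate 3 (adjusted p up to 0.137 in the others). H4C7, below background, differed by -0.05 (adjusted p = 0.683).

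In Y261A cells most members lay lower than in vector cells, but few calls were made over the whole table. H1-1 fell and no member rose, against 0.214% lower and 0.138% higher over all genes (0.353% in either direction). H1-1 was at 5.39, 5.46 and 5.49 in Y261A cells and at 5.81, 5.76 and 5.84 in vector cells. Its fall of 0.36 (SE 0.05, adjusted p = 0.0353) was kept in 1 of the 9 fits without 1 array, that without D319N replicate 2, and its adjusted p reached 0.153 in the others. The median difference of the 34 members was -0.21, against 0.00 over all genes, and 21 members had an unadjusted p under 0.05, against 10.4% of all genes. All 3 Y261A arrays lay below all 3 vector arrays for 24 members and above them for none, against 9.24% and 4.11% of all genes. H2BC14 differed by -0.58 ± 0.09 (adjusted p = 0.0580) and H1-4 by -0.60 ± 0.12 (adjusted p = 0.125), and both had no overlap with vector. H2BC14 was called with the arrays centred, quantile-normalized or dim genes dropped. The median difference was -0.29 in the 6 H1, -0.16 in the 10 H2A and -0.21 in the 16 H2B genes. Of other members that fell in D319N cells, H2BC12 differed by -0.45 in Y261A against vector cells (adjusted p = 0.313), H1-5 by -0.38 (0.474), H2BC10 by -0.34 (0.415), H4C3 by -0.27 (0.233) and H2AC12 by -0.27 (0.357), none of them called. Both comparisons use the same 3 vector arrays. Without D319N replicate 2 and Y261A replicate 3 the median was -0.18, and H1-1 was called, with 0.348% of all genes lower.

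Between the mutants, 4 members were lower and 2 higher in D319N than in Y261A cells, against 4.72% and 9.92% of all genes. H1-4 was lower by 0.60 in D319N cells (log2 -0.60 ± 0.12 SE, adjusted p = 0.0141), H2BC10 by 0.49 (-0.49, adjusted p = 0.0435), H2BC14 by 0.38 (-0.38, adjusted p = 0.0269) and H2AC12 by 0.32 (-0.32, adjusted p = 0.0499). H2AC6 was 0.78 ± 0.18 higher (adjusted p = 0.0255). H2BC21 was at 7.21, 7.10 and 7.32 in D319N cells and at 7.04, 6.99 and 6.96 in Y261A cells, and was 0.21 higher (SE 0.05, adjusted p = 0.0367). H2BC5 differed by 0.29 in the same direction (adjusted p = 0.0748). The median member differed by -0.10 between D319N and Y261A, against -0.02 over all genes. This median was -0.052 with centred and -0.140 with quantile-normalized arrays, and ran from -0.133 to -0.036 without 1 array. Without D319N replicate 2 and Y261A replicate 3 it was -0.048. In that fit 4 members were lower and 3 higher, against 13.5% and 14.4% of all genes. H1-4 was called in all 9 fits without 1 array, H2BC14 in 5, H2AC6 in 3, H2AC12 and H2BC10 in 2 each and H2BC21 in 1. In the fits without D319N replicate 1, Y261A replicate 1 or Y261A replicate 2, H1-4 was the only one of the 6 still called, and the adjusted p of the others reached 0.126. With the D319N and Y261A arrays fitted alone, H1-4 was not called, and H2BC14 was the only one of the 6 still called.

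The gene's structure and place were set beside these values. RefSeq gives 4 coding members (H2BC5, H2BC12, H2BC18 and H2BC21) a span over 1000 bases, from 2224 to 29682 bases, where the other 28 coding members span at most 1000. The D319N minus vector median was 0.01 in these 4 genes, of which H2BC12 fell, and -0.28 in the 28, of which 13 fell. The Y261A minus vector medians were -0.19 and -0.21. No test of this split was made. By chromosome, 13 of 27 members on chromosome 6 fell in D319N cells (median -0.28) and 1 of 7 on chromosome 1 (median -0.19).

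Head-to-head H2A and H2B pairs share 1 promoter region, and 5 such pairs had both genes among the members. H2AC14 and H2BC14, with 244 bases between their starts, differed from vector by -0.38 and -0.97 in D319N cells. H2AC25 and H2BC26, 229 bases apart, differed by -0.21 and -0.40. H2BC13 and H2AC13, 243 bases apart, differed by -0.24 and -0.26. H2BC21 and H2AC20, 235 bases apart, differed by 0.06 and -0.14, and H2AC1 and H2BC1, 214 bases apart, by -0.11 and -0.07. The differences of H2AC14, H2AC1 and H2BC1 are of signals below background.

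The 37 rows that list several histone genes hold the H3 genes and most H4 genes. They were fitted with all 68993 rows, a setting chosen after seeing the data, where 4.47% of rows were lower and 4.07% higher in D319N than in vector cells. Of the 37 rows, 16 were lower and 3 higher, with a median of -0.23. A row of H2AC8 and H2AC4 was at 8.66, 8.54 and 8.80 in D319N cells, at 9.50, 9.47 and 9.47 in Y261A cells and at 9.86, 9.92 and 9.91 in vector cells. Its groups were well apart, and it was lower by 1.23 in D319N than in vector cells (log2 -1.23 ± 0.06 SE). Of the 7 rows of H2A genes 6 fell, of the 12 rows of H3 genes 4 fell and of the 3 rows of H2B genes 1 fell. H4 rows went both ways. Of 13, each listing 14 H4 genes, 5 fell, the lowest by 0.73 (log2 -0.73), and 3 rose, the highest by 0.63. That highest row was at 7.80, 7.52 and 7.77 in D319N cells, at 6.94, 6.88 and 6.63 in Y261A cells and at 7.06, 7.06 and 7.08 in vector cells. Another row that rose was close to it, at 7.73, 7.54 and 7.76 in D319N cells and at 7.06, 7.08 and 7.06 in vector cells. Rows that list the same genes may measure the same RNA, so counts of rows are not counts of separate genes. In Y261A cells all 37 rows lay below vector (median -0.22), none was called, against 0.0174% lower and 0.0203% higher over all rows, 21 had an unadjusted p under 0.05, against 8.88% of all rows, and 24 did not overlap, against 6.45% of all rows lower. Between D319N and Y261A cells 4 of the 37 rows were lower and 4 higher, against 2.31% and 4.09% of all rows. The plot by histone class sets these rows beside the members.

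**Figure D5:**
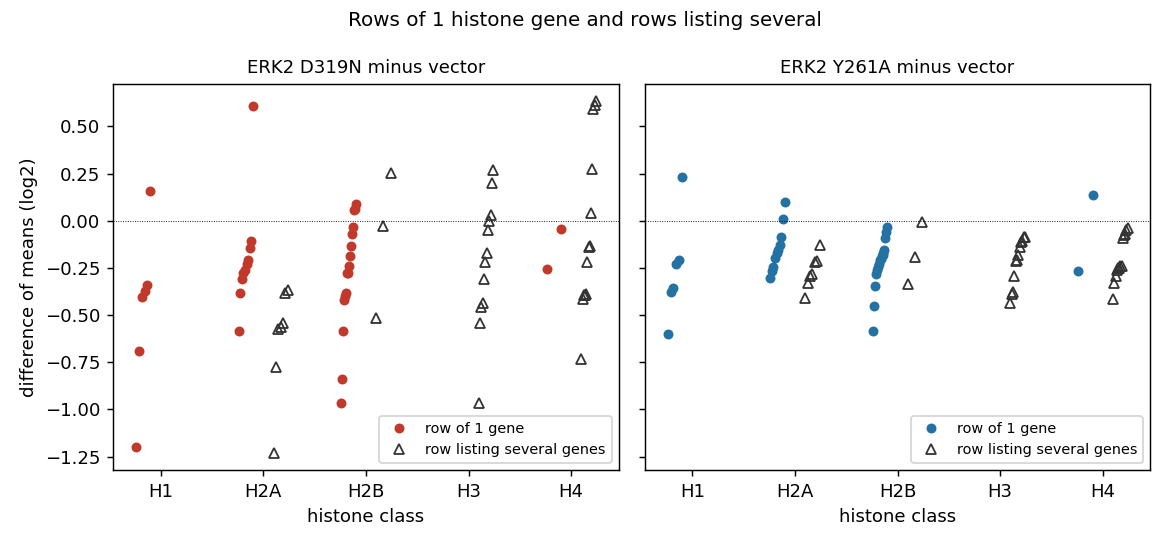
Difference of group means (log2) by histone class, for ERK2 D319N minus vector on the left and ERK2 Y261A minus vector on the right. Filled circles are the 34 genes with a row of their own and open triangles are rows listing several genes of 1 class. Rows of 1 gene reach from -1.20 (H1-4) to 0.61 (H2AC6) in D319N cells, and 3 H4 triangles near 0.6 stand above the other triangles, while in Y261A cells all triangles lie below 0.

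Genes that make, process or handle histone RNA and protein were read from lists chosen with results of these data known. Their counts in D319N against vector cells stand beside 8.93% higher and 7.66% lower over all genes. Among 18 genes of histone transcription, 2 rose and 2 fell in D319N against vector cells (median 0.05), shares near those over all genes. CCNE1, which encodes cyclin E1, rose by 0.28 (adjusted p = 0.0110) and the E2F family member E2F3 by 0.45 (adjusted p = 0.00701). NFYC, a subunit of the CCAAT-binding factor NF-Y, fell by 0.19 (adjusted p = 0.00261), and CDC25A, a phosphatase that activates CDK2, by 0.21 (adjusted p = 0.0441). NPAT was not called (0.18, adjusted p = 0.215), nor were CASP8AP2 (0.03), an organiser of histone locus bodies, HINFP (0.00), an activator of H4 genes, E2F1 (0.01) and CCNE2 (0.13).

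Among 22 genes of histone mRNA processing and turnover, TUT7 rose and none fell (median -0.04). TUT7, a uridylyltransferase that adds uridines to RNA ends, was at 8.75, 8.73 and 8.70 in D319N cells, at 7.25, 7.25 and 6.97 in Y261A cells and at 6.93, 6.82 and 6.81 in vector cells. D319N stood far above the other groups (1.87 ± 0.08 SE against vector, adjusted p = 1.30e-05). SLBP was not called, at 8.41 ± 0.03 in D319N and 8.46 ± 0.04 in vector cells (SD, n = 3, adjusted p = 0.423), and LSM11, of the snRNP that cuts the 3′ end, was not called (-0.02). XRN1, an exonuclease, differed by 0.27 (adjusted p = 0.0580). The part of TUT7 in the histone values was not tested.

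Of 21 histone chaperone and import genes 9 fell and none rose (median -0.14). They include SSRP1, a subunit of the FACT complex (-0.66, adjusted p = 0.000442), CHAF1B, of the chromatin assembly factor that loads H3 and H4 behind the fork (-0.53, adjusted p = 0.00362), RBBP7 (-0.29, adjusted p = 0.000947) and CHAF1A (-0.16, adjusted p = 0.00751). Of 17 further histone genes on a list, 9 were measured. Of these 2 fell, CENPA, the centromeric H3 (-0.24, adjusted p = 0.00832), and H2AZ1, which encodes H2A.Z (-0.21, adjusted p = 0.0262). H2AX (-0.15, adjusted p = 0.0644), H2AZ2 (-0.05) and H1-10 (0.06) were not called. H3-4, whose older symbol is HIST3H3 and which is listed under a current name outside the rule, differed by -0.08 (adjusted p = 0.278).

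Of 32 S phase genes measured, 15 fell and 1 rose in D319N against vector cells (median -0.18), against 7.66% and 8.93% of all genes. Among those that fell were MCM2 (-0.39, adjusted p = 0.00259) and MCM5 (-0.36, adjusted p = 0.00542) of the replicative helicase, the licensing factor CDT1 (-0.31, adjusted p = 0.00282) and thymidylate synthase, TYMS (-0.43, adjusted p = 0.00289). The gene that rose, the nucleoside transporter SLC29A1 (0.16, adjusted p = 0.0132), was named after its value was seen. All 3 D319N arrays lay below all vector arrays for 25 of the 32, against 16.9% of all genes. In Y261A against vector cells limma called no gene of these 5 lists. An unadjusted p under 0.05 was reached by 3 of 18 transcription, 1 of 22 processing, 5 of 21 chaperone, 3 of 9 further histone and 4 of 32 S phase genes. The share over all genes was 10.4%, so that the processing and S phase counts lie below or near it. The S phase median was -0.06, against 0.00 over all genes. Of the 32 S phase genes 28 had a lower mean than in vector cells, against 11051 of all 22411 genes. All 3 Y261A arrays lay below all vector arrays for 9 of the 32, against 9.24% of all genes. They lay above all vector arrays for 2, against 4.11%. The part of the share of cells in S phase in the histone values was not tested. Of 10 epithelial markers 5 fell in D319N cells (KRT5, KRT18, CDH1, EPCAM and DSP), and their summed log2 level was 93.5 to 95.4 in D319N, 99.1 to 100.4 in Y261A and 100.3 to 101.2 in vector cells. None of 14 markers of other cell types, 3 of them below background, was called by limma in either mutant against vector. An unadjusted p under 0.05 was reached by 2 in D319N and 0 in Y261A cells (28.5% and 10.4% of all genes). In D319N against Y261A cells limma called 1 of the 14 higher and 0 lower, against 9.92% and 4.72% of all genes. The summed log2 level of the 14 was 75.9 to 76.2 in D319N, 75.4 to 77.1 in Y261A and 75.9 to 76.7 in vector cells.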

How the data were processed

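RNA from the 9 MCF-10A samples was labelled with a whole-transcript kit and hybridised to Affymetrix arrays, per the labels' protocols. Per the submitters' processing notes, the authors ran RMA in Affymetrix Expression Console 1.4, and the deposited values are on the log2 scale. This method brings the probe intensities of the arrays to 1 distribution and then summarises probes by median polish. The deposited row values need not share 1 distribution, and their medians over rows that are no controls ran from 5.08 to 5.26 by array. Median polish can return identical values, and 14207 of 22411 genes had such ties within a group, 6 members among them. Their spread may therefore be understated. For the array's genome build, the sources used here give none.

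Of 70523 rows, 1530 are controls, 23781 have 1 symbol, 1543 several and 43669 none. Symbols were updated through RefSeq for GRCh38.p14 (306 changed, 4 unmatched), and the row with the highest mean stood for a gene. With limma 3.58.1 in R 4.3.3, the 9 arrays were fitted with 1 mean for each group and eBayes (6 residual and 1.23 prior degrees of freedom), two-sided, and Benjamini-Hochberg adjustment over all genes within a contrast. No further normalization was applied. Tested on simulated data for D319N minus vector over 22411 genes, the fit recovered 15 of 50 genes changed 1.2-fold, 44 of 50 at 1.5-fold, 47 of 50 at 2-fold and 50 of 50 at 4-fold, with 10 other calls. The simulated noise was normal and independent between genes and arrays, without ties or deviations shared by genes. These counts are therefore not error rates for the real arrays.

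The members and lists were chosen with earlier results of these data known. Array values are given for members called in a contrast, up to 10 per contrast by size, and list genes by up to 4 smallest p and a fixed set, some genes of which are not reported here. Since separate cultures are not stated, p-values measure only how these samples differ, possibly for technical reasons, and 3 arrays a group limit the precision. Alternatives left out each array, blocked on replicate number, centred or quantile-normalized arrays, dropped dim genes, and changed the moderation. Others put a floor on the spread of every gene, used every row of 1 symbol or 2 groups alone, and left out D319N replicate 2 with Y261A replicate 3.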

Additional observations from a re-analysis of the deposited data

Results flagged for a closer look

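For 6 clustered histone genes D319N and Y261A cells differed at an adjusted p under 0.05, as tested directly with limma. Of the 34 members 4 were lower and 2 higher, against 4.72% and 9.92% of all genes. Only H1-4 kept its call in all 9 fits that leave out 1 array. The call was kept in 5 fits for H2BC14, 3 for H2AC6, 2 each for H2AC12 and H2BC10, and 1 for H2BC21. H1-4 (log2 -0.60), H2BC10 (-0.49), H2BC14 (-0.38) and H2AC12 (-0.32) were lower in D319N than in Y261A cells on all arrays. H2AC6 (0.78) and H2BC21 (0.21) were higher in D319N than in Y261A cells on all arrays. No formal test for an outlying array was run within groups of 3.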

How the results depend on the processing

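Leaving out 1 array at a time gave 7 to 12 histone genes lower and 0 to 1 higher in D319N against vector cells (over all genes 1130 to 2103 lower and 1393 to 2469 higher), with medians of -0.298 to -0.196. It gave 0 to 1 lower for Y261A against vector (over all genes 5 to 84 lower and 4 to 49 higher), and 1 to 5 lower and 0 to 3 higher for D319N against Y261A (over all genes 611 to 2338 lower and 1330 to 2964 higher). H1-1, H1-3, H1-4, H2AC12, H2BC10 and H2BC14 stayed lower in D319N against vector cells in every such fit. Deviations of same-numbered replicates from their group means correlated at -0.448 to 0.208. Deviations of 3 arrays from their own mean depend on each other, so these values cannot decide whether a replicate number marks a shared batch. With that number as a replicate block, 11 histone genes were lower in D319N against vector cells (over all genes 1678 higher and 1385 lower), 0 in Y261A against vector cells (over all genes 7 higher and 6 lower), and 1 was higher and 2 lower between D319N and Y261A (over all genes 1743 and 747). Centring the arrays gave 1 histone gene higher and 11 lower, and over all genes 1961 higher and 1126 lower, in D319N against vector cells, 14 higher and 31 lower over all genes in Y261A against vector cells, and 2 histone genes and 677 genes lower in D319N against Y261A. Quantile normalization gave 1 histone gene higher and 18 lower in D319N against vector cells (over all genes 2249 and 2059), 2 lower and 78 genes higher over all in Y261A against vector cells, and 1897 genes lower in D319N against Y261A. Among genes above background, 1 histone gene was higher in D319N and 2 were lower in Y261A, each against vector (over all such genes 2042 higher and 64 lower). A floor of 0.101, the median SD of genes without ties, was put on the moderated SD of every gene, tied or not. It left 1122 genes higher and 703 lower in D319N against vector cells. In Y261A against vector cells it left 2 higher, 0 lower and 0 histone genes. Between D319N and Y261A it left 1165 higher and 277 lower, with 1 histone gene higher and 2 lower. Fitting 2 groups alone, with fewer residual degrees of freedom, left 7 histone genes lower in D319N against vector cells (over all genes 1355). It left 0 higher and 1 lower, H2BC14 and not H1-4, against Y261A (1290 and 643 over all genes). Without D319N replicate 2 and Y261A replicate 3, 1 histone gene was higher and 13 lower in D319N against vector cells (3527 higher and 4452 lower over all genes), with a median of -0.196. The same setting gave 79 higher and 78 lower over all genes in Y261A against vector cells and 3231 higher and 3028 lower in D319N against Y261A. Small uncalled differences changed sign. H2BC18 in D319N against vector was 0.00368 with centred and 0.00964 with quantile-normalized arrays, and H2BC5 ran from -0.00913 to 0.122 without 1 array. In Y261A against vector, H2AC2P was -0.00173 with centred arrays and -0.0509 without the 2 arrays that stood apart, where H2AC1 was -0.0185, and without 1 array H2AC2P ran from -0.0509 to 0.107, H2AC1 from -0.0185 to 0.171 and H2BC1 from -0.0888 to 0.00356. Trended and robust moderation kept the 14 D319N against vector calls, and every row of 1 symbol kept them too. Unless stated, the cause was not tested. Signal near background limits 7 members, and 3 arrays a group limit all.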
